A study of Homo sapiens with 12 samples.

Results

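The 35 genes described here take glucose into the cell, carry it through glycolysis to pyruvate and lactate, gate the entry of pyruvate into the mitochondrion, or control those steps. They were listed by gene symbol, with no measured value entering the list, and matched to the deposited table through Ensembl identifiers and GENCODE release 44. All 35 were found among the 26058 genes of the table. All 35 also had a mean of at least 0.5 RPKM (reads scaled to exon length and to a total for the library), the minimum for testing, which 22067 genes reached. That total was 0.974 to 1.16 times the reads assigned to genes, as recovered from the RPKM. It was thus not the plain number of mapped reads in every library.

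Glucose enters most cells through facilitative transporters of the SLC2A (GLUT) family and is trapped by hexokinase, after which the glycolytic enzymes split it to pyruvate. Phosphofructokinase, the committed step, is activated by fructose-2,6-bisphosphate, whose level is set by the PFKFB enzymes and by the phosphatase TIGAR. Pyruvate leaves as lactate through lactate dehydrogenase and the monocarboxylate transporters, or enters the mitochondrion through pyruvate dehydrogenase, which the PDK kinases switch off. The α-arrestins TXNIP and ARRDC4 promote removal of glucose transporters from the cell surface, and both genes are known targets of the glucose-sensing MondoA and ChREBP factors. AMP-activated protein kinase (AMPK), the energy sensor of the cell, is known to phosphorylate TXNIP protein and PFKFB isozymes. HIF1A encodes the oxygen-regulated factor that drives many genes of this pathway.

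The study asked how cordycepin (3′-deoxyadenosine, an adenosine analogue) alters the transcriptional response to epidermal growth factor (EGF), and whether AMPK is needed. HEK293 cells, an established human embryonic kidney line, were compared as wild type (WT) and as AMPK KO derivatives in which CRISPR had targeted both catalytic α subunit genes, PRKAA1 and PRKAA2. Whether the AMPK KO cells were 1 clone is not given in the sources used here. In both lines every culture had been kept for 24 h in low serum (0.1% FBS according to the labels, while the methods of the study give a different percentage) and lasted 50 min under treatment. The DMSO groups received the vehicle (0.025% by volume) and no EGF. The DMSO+EGF groups received the vehicle and, after 20 min, EGF for 30 min. The cordycepin+EGF groups received 25 µM cordycepin in the vehicle, at the same 0.025% by volume, with the same EGF exposure. Each of the 6 groups held 2 libraries, numbered replicates 2 and 3. The authors called them biological replicates and had discarded the remaining replicate of every group as an outlier, so that the spread behind each p-value is that of the libraries kept. Whether they came from separate days or passages is not given in the sources used here.

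The libraries held 12673979 to 26430113 reads assigned to genes, recovered from the RPKM steps, except WT DMSO replicate 3 with 4005376. The replicate correlation of log2 values was 0.918 in WT DMSO and 0.961 to 0.977 in the other groups, so that comparisons with WT DMSO rest on the shallowest library. PRKAA1 RPKM was 21.9 and 15.4 in DMSO, 17.4 and 18.98 with EGF and 11.3 and 11.2 with cordycepin and EGF in WT cells, and 7.62 and 7.37, 8.51 and 7.49, and 7.03 and 8.504 for the same treatments in AMPK KO cells. PRKAA1 transcripts fell in AMPK KO cells (log2 fold change -0.96 ± 0.10 (SE), limma adjusted p = 0.00201, mean of 3 treatments), while PRKAA2 had a log2 fold change of -0.48 ± 0.12 with an adjusted p of 0.0547. HEK293 markers summed to 79.9 to 136 RPKM per library, with VIM, CDH2 and NEFL as the main contributors. The rest of that list was low, with PAX2 at 0.113 to 0.851 RPKM, LHX1 at 0.506 to 0.947 and NEFM at 0 to 0.342. Fibroblast markers summed to 0.507 to 1.43 RPKM and leukocyte markers to 0.525 to 2.86 RPKM, with 2 of 5 genes in the table for each, and no hepatocyte marker was in it. The erythroid list summed to 3.60 to 13.4 RPKM, all of it from HBA1 and HBA2.

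Levels of the 35 genes are given in RPKM, a scale that divides by exon length. GAPDH, ENO1, PKM and TPI1 led with means over 12 libraries of 436, 230, 172 and 141 RPKM, followed by LDHA at 114 and GPI at 103. At the other end stood SLC16A3, the lactate exporter of highly glycolytic cells, at 0.769 RPKM, the bifunctional enzyme gene PFKFB2 at 0.857 and the high-affinity glucose transporter gene SLC2A3 at 1.04. Within most enzyme pairs 1 isoform prevailed. ENO1 had a mean of 230 RPKM against 9.94 for the neuronal enolase ENO2, ALDOA 25.4 against 1.83 for ALDOC, and LDHA 114 against 6.92 for LDHB. HK1 and HK2, the housekeeping and the inducible hexokinase, were close, at 16.1 and 17.7 RPKM. Among the phosphofructokinase subunits PFKP stood at 26.6 RPKM, PFKL at 12.1 and PFKM at 8.32. The kinases of pyruvate dehydrogenase ran from PDK3 at 10.7 through PDK1 at 6.09 and PDK2 at 4.003 to PDK4 at 2.07 RPKM.

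**Figure D1:**
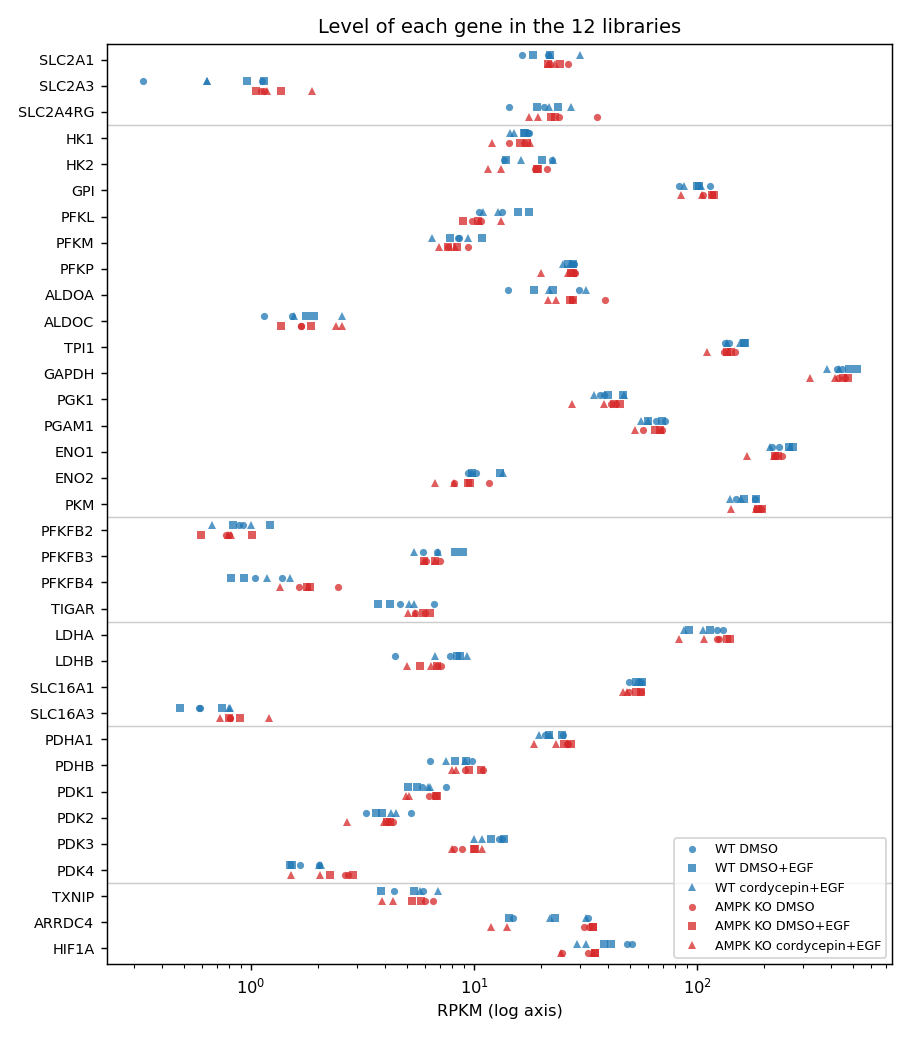
RPKM of the 35 genes (log axis) in the 12 libraries, with genes in rows by role and WT (blue) drawn above AMPK KO (red) within each row. GAPDH lies between 321 and 520 RPKM in all libraries, and SLC2A3 spreads from 0.327 to 1.88.

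The genes differed in how much they varied over the 12 libraries. The coefficient of variation was 6.70% for SLC16A1, the widely expressed lactate transporter gene MCT1, 8.73% for PFKP and 9.89% for PGAM1. SLC2A3 varied most, at 37.6%, followed by ARRDC4 at 36.3%, PFKFB4 at 31.5%, ALDOA at 25.6% and ALDOC at 25.0%. The wide range of SLC2A3 includes WT DMSO replicate 3, where its 0.327 RPKM stood for 8 reads. Reads at processed pseudogenes can be exchanged with those of the parent gene: those named after TPI1 held 21.6 to 30.4% of the combined reads, the one named after SLC2A3 6.56 to 27.3%, and those of GAPDH 4.10 to 7.82%. SLC2A3 also has a near-identical neighbour, SLC2A14, and its values are uncertain for that reason.

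**Figure D2:**
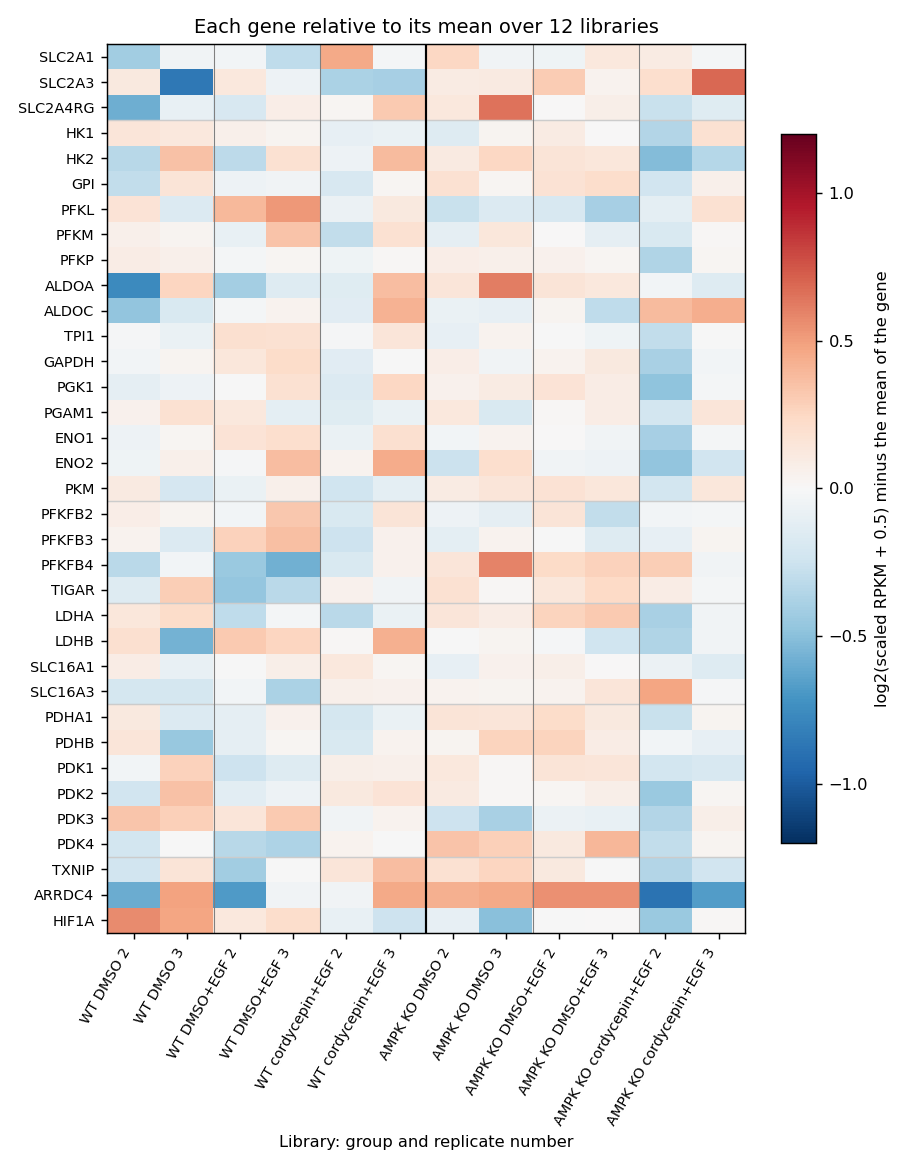
Each of the 35 genes (rows, by role) in the 12 libraries (columns), as log2(scaled RPKM + 0.5) minus the mean of that gene over all libraries, with red above and blue below the mean. AMPK KO cordycepin+EGF replicate 2 is below the mean for most rows, and ARRDC4 and TXNIP are below it in both libraries of that group.

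TXNIP and ARRDC4 turned out to lie on opposite sides of 0 in the 2 lines under cordycepin. Their promoters are shown because both carry sequences related to the E-box CACGTG, the core of the carbohydrate response element that MondoA and ChREBP bind. LDHA is shown beside them as a classical HIF-1 target. Each run is 250 bases ending at the base before the RefSeq transcript start, 5′ to 3′ on the strand of the gene, in build GRCh38.p14. Capitals mark, on either strand, the E-box CACGTG and the letters ACGTG or GCGTG, which are cores of hypoxia response elements. They also mark a pair of CACGNG boxes in tandem, 5 bases apart. Every E-box CACGTG holds the shorter core ACGTG. The TXNIP window is chr1:145996580-145996829 on the minus strand, the ARRDC4 window chr15:97960453-97960702 on the plus strand and the LDHA window chr11:18394313-18394562 on the plus strand.
TXNIP: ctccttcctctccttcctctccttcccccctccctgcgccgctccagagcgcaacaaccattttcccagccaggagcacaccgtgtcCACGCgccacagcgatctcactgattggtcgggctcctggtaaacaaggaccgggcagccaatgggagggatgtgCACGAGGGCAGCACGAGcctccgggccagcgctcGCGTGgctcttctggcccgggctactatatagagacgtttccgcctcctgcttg
ARRDC4: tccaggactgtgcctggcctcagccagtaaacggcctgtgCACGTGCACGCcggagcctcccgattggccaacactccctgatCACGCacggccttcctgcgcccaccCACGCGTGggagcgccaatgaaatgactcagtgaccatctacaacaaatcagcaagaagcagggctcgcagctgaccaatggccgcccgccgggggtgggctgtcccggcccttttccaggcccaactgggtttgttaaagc
LDHA: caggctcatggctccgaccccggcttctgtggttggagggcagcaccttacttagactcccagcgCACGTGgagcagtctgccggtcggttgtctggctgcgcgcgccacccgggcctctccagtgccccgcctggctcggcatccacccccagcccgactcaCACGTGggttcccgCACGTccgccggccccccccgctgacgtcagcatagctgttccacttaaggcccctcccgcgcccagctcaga

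RefSeq windows were matched for 32 of the 35 genes, not for SLC2A3, PFKFB2 and SLC16A1. CACGTG was found in 5 of these 32 windows (ALDOC, ARRDC4, GAPDH, LDHA and PDHB), against 6.49% of 27305 windows of the same length, 1 for each gene. ACGTG was found in 12 (18.7% of all windows) and GCGTG in 13 (31.9% of all windows). The pair of CACGNG and CNCGTG in either order, 5 bases apart, was in none of the 32 and in 0.0476% of all windows. The tandem pair of CACGNG, a search added after the sequences had been read, was in TXNIP alone among the 32 and in 0.0586% of all windows. These matches describe letters only.

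The first comparison was that of the lines, averaged over the 3 treatments with 6 libraries against 6. PDK3, a kinase that inactivates pyruvate dehydrogenase, was the only one of the 35 genes to pass an adjusted p of 0.05, and it was lower in AMPK KO cells. PDK3 (ENSG00000067992) lies on chromosome X of GRCh38, 24465244 to 24550466, on the plus strand. PDK3 RPKM was 13.4 and 12.99 in WT DMSO, 11.9 and 13.6 in WT DMSO+EGF, 10.03 and 10.9 in WT cordycepin+EGF, 8.85 and 8.11 in AMPK KO DMSO, 10.1 and 9.97 in AMPK KO DMSO+EGF and 7.92 and 10.9 in AMPK KO cordycepin+EGF. All 4 WT libraries without cordycepin lay above all 6 AMPK KO libraries, while the lines overlapped under cordycepin. The log2 fold change of PDK3 was -0.36 ± 0.08 (SE), with a limma adjusted p of 0.049, and the call was not stable. In bulk RNA, fewer cells with a transcript and less of it per cell cannot be told apart. PDK3 passed under 5 of 11 other settings and in 2 of the 12 fits without a library (without WT DMSO replicate 3 or AMPK KO cordycepin+EGF replicate 3), with adjusted p from 0.0101 to 0.146. It was lost without any of the other 10 libraries, and with a replicate block within each line it was 0.0788.

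Across all genes tested 4.34% passed in that comparison, and 1 of 35 is a share below this. At an unadjusted p under 0.05 stood 3 genes of the list with a higher value and 4 with a lower one, where 20.4% of all genes did. The count test on recovered reads (limma voom) called 4, namely PFKFB4 as higher and PDK3, PFKL and HIF1A as lower, against 10.8% of all genes. The median log2 fold change of the 35 genes was -0.01, against 0.00 for all genes tested.

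Glucose uptake genes did not pass in the comparison of the lines. SLC2A1, encoding the basal transporter GLUT1, was at 16.3 and 21.5 in DMSO, 21.9 and 18.4 with EGF and 29.8 and 21.8 with cordycepin and EGF in WT cells, and 26.5 and 21.9, 21.6 and 24.3, and 23.02 and 21.4 for the same treatments in AMPK KO cells RPKM. SLC2A3, encoding GLUT3, was at 1.12 and 0.327 in WT DMSO, 1.14 and 0.961 in WT DMSO+EGF, 0.634 and 0.637 in WT cordycepin+EGF, 1.103 and 1.14 in AMPK KO DMSO, 1.36 and 1.05 in AMPK KO DMSO+EGF and 1.18 and 1.88 in AMPK KO cordycepin+EGF RPKM. SLC2A4RG, a regulator of the insulin-responsive transporter gene, was at 14.4 and 20.7 in DMSO, 19.2 and 23.8 with EGF and 21.8 and 27.3 with cordycepin and EGF in WT cells, and 23.97 and 35.5, 22.2 and 23.1, and 17.6 and 19.4 for the same treatments in AMPK KO cells RPKM. GLUT1 values overlapped between the lines in the mean comparison (log2 fold change 0.12 ± 0.11 (SE), adjusted p = 0.596). Those of SLC2A3 had a log2 fold change of 0.48 ± 0.18 with an adjusted p of 0.171, and both AMPK KO cordycepin+EGF libraries were above both WT ones. In DMSO alone, SLC2A4RG had a log2 fold change of 0.72 ± 0.21, with an adjusted p of 0.126 in limma and of 0.0327 in voom, and both AMPK KO libraries were above both WT libraries.

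Among the glycolytic enzymes, 11 of 15 had a lower mean in AMPK KO cells over the treatments, where 49.7% of all genes tested were lower. None passed, and the median log2 fold change was -0.06. In single treatments 6 of 15 were lower in DMSO, 7 with EGF and 9 with cordycepin and EGF. The medians there were 0.02, 0.00 and -0.14. PFKL, the liver-type subunit of phosphofructokinase, was at 13.3 and 10.5 in WT DMSO, 15.8 and 17.7 in WT DMSO+EGF, 11.02 and 12.9 in WT cordycepin+EGF, 9.82 and 10.8 in AMPK KO DMSO, 10.4 and 8.900 in AMPK KO DMSO+EGF and 10.5 and 13.2 in AMPK KO cordycepin+EGF RPKM. The WT DMSO+EGF libraries were the highest of all 12. PFKL had a log2 fold change between the lines of -0.32 ± 0.09, adjusted p = 0.0888, over the 3 treatments. Under EGF alone this was -0.75 ± 0.16 (95% confidence interval -1.11 to -0.39) with an adjusted p of 0.0517 in limma and 0.00682 in voom. ENO2 was at 9.38 and 10.2 in DMSO, 9.802 and 13.1 with EGF and 9.83 and 13.5 with cordycepin and EGF in WT cells, and 8.14 and 11.6, 9.58 and 9.39, and 6.68 and 8.11 for the same treatments in AMPK KO cells RPKM. Its log2 fold change under cordycepin was -0.59 ± 0.20 between the lines, adjusted p = 0.284, with both AMPK KO libraries below both WT libraries. GAPDH, the reference transcript of the study's RT-qPCR, was at 422 and 445 in WT DMSO, 482 and 520 in WT DMSO+EGF, 384 and 432 in WT cordycepin+EGF, 461 and 430 in AMPK KO DMSO, 450 and 473 in AMPK KO DMSO+EGF and 321 and 415 in AMPK KO cordycepin+EGF RPKM. GAPDH values overlapped between the lines, with a log2 fold change of -0.07 ± 0.11 and an adjusted p of 0.741.

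The fructose-2,6-bisphosphate genes differed among themselves. PFKFB4, a bifunctional kinase and phosphatase, was at 1.04 and 1.38 in DMSO, 0.9299 and 0.816 with EGF and 1.18 and 1.501 with cordycepin and EGF in WT cells, and 1.64 and 2.46, 1.78 and 1.84, and 1.800 and 1.35 for the same treatments in AMPK KO cells RPKM. Each AMPK KO mean was above the WT mean of the same treatment, and the log2 fold change over the treatments was 0.50 ± 0.13 (adjusted p = 0.0617 in limma and 0.00716 in voom). TIGAR was at 4.66 and 6.602 in WT DMSO, 3.704 and 4.203 in WT DMSO+EGF, 5.35 and 5.096 in WT cordycepin+EGF, 6.05 and 5.46 in AMPK KO DMSO, 5.87 and 6.34 in AMPK KO DMSO+EGF and 5.46 and 5.07 in AMPK KO cordycepin+EGF RPKM. Its lowest pair was WT DMSO+EGF, and under EGF the lines differed by 0.59 ± 0.17 on the log2 scale (adjusted p = 0.0922 in limma and 0.0187 in voom). PFKFB3, the isozyme with the strongest kinase activity, was at 6.82 and 5.89 in DMSO, 8.23 and 8.93 with EGF and 5.38 and 6.91 with cordycepin and EGF in WT cells, and 6.101 and 7.02, 6.67 and 5.97, and 5.97 and 6.65 for the same treatments in AMPK KO cells RPKM. Both WT DMSO+EGF libraries lay above the other 10, and the log2 fold change between the lines under EGF was -0.40 ± 0.15, adjusted p = 0.158.

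HIF1A was at 51.2 and 48.5 in WT DMSO, 38.3 and 41.2 in WT DMSO+EGF, 31.8 and 28.99 in WT cordycepin+EGF, 32.4 and 24.9 in AMPK KO DMSO, 34.9 and 34.8 in AMPK KO DMSO+EGF and 24.6 and 34.2 in AMPK KO cordycepin+EGF RPKM. The 4 WT libraries without cordycepin were the highest. In DMSO the log2 fold change between the lines was -0.82 ± 0.17 (95% confidence interval -1.21 to -0.43), with an adjusted p of 0.0657 in limma and 0.0149 in voom, whereas under cordycepin it was -0.05 ± 0.17. Without WT DMSO replicate 3 the log2 fold change in DMSO was -0.866 for HIF1A, -0.656 for PDK3 and 0.970 for SLC2A4RG. With all libraries it was -0.821, -0.630 and 0.721, and none of these genes passed in limma. With that library kept, voom called SLC2A4RG as higher and HIF1A and PDK3 as lower. PDK4, the kinase best known as a starvation-responsive brake on pyruvate oxidation, was at 1.65 and 2.02 in DMSO, 1.52 and 1.498 with EGF and 2.05 and 2.02 with cordycepin and EGF in WT cells, and 2.72 and 2.64, 2.26 and 2.85, and 1.503 and 2.05 for the same treatments in AMPK KO cells RPKM. The AMPK KO libraries without cordycepin were the 4 highest. Under EGF PDK4 had a log2 fold change between the lines of 0.61 ± 0.18 (adjusted p = 0.103 in limma and 0.034 in voom).

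**Figure D3:**
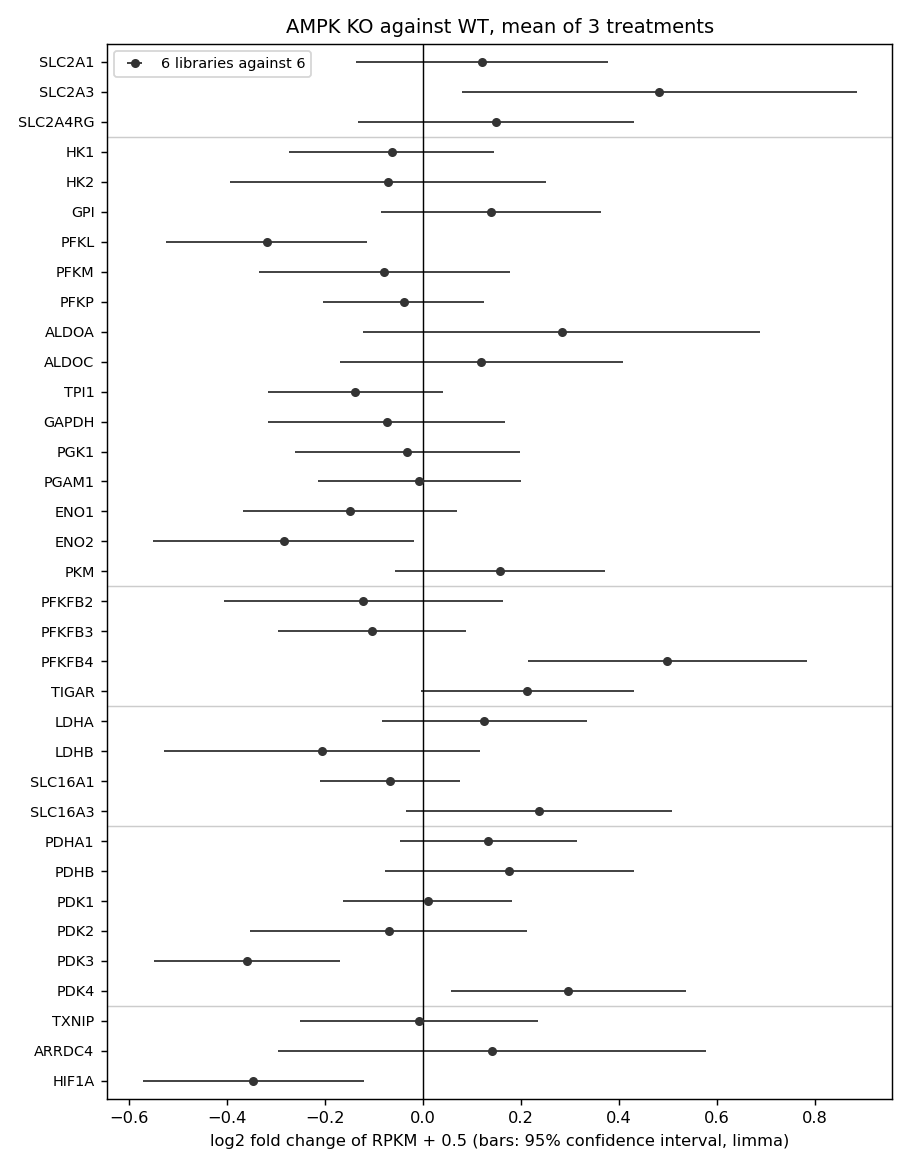
log2 fold change of AMPK KO against WT for the 35 genes (rows, by role), averaged over the 3 treatments, with 95% confidence intervals from limma. PDK3 is at -0.36 and PFKFB4 at 0.50, and for most of the other genes the interval includes 0.

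Within single treatments none of the 35 genes passed in limma. In DMSO alone 5 stood at an unadjusted p under 0.05 (21.3% of all genes), voom called 3 (8.23% of all genes) and limma called 0.44% of all genes. With EGF 8 stood at an unadjusted p under 0.05 (22.5% of all genes), voom called 5 (11.6%), namely PFKFB4, TIGAR, PDK4 and ARRDC4 as higher and PFKL as lower, and limma called 1.74% of all genes. With cordycepin and EGF 5 stood at an unadjusted p under 0.05 (13.7% of all genes), voom called 0 (1.71%), and limma called 0.118% of all genes. The median log2 fold change of the 35 genes was 0.03 in DMSO, 0.10 with EGF and -0.14 with cordycepin and EGF, against 0.01, 0.00 and 0.01 for all genes tested.

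EGF given for 30 min was compared with DMSO alone in each line. In WT cells none of the 35 genes passed in limma or voom, which called 0.0227% and 0.0272% of all genes, and 4 stood at an unadjusted p under 0.05 where 9.72% of all genes did. Those 4 were PFKL (log2 fold change 0.45 ± 0.16, adjusted p = 0.487), PFKFB3 (0.38 ± 0.15, adjusted p = 0.497), PDK1 (-0.32 ± 0.13, adjusted p = 0.507) and TIGAR (-0.47 ± 0.17, adjusted p = 0.493). In each of the 4 the WT DMSO+EGF libraries did not overlap those in WT DMSO. The 4 were picked by their p, so that this adds nothing to it, and the share over all genes was not counted. The shallow library, WT DMSO replicate 3, enters each of these values. Without WT DMSO replicate 2, TIGAR passed with an adjusted p of 0.0493, where 3.18% of all genes did.

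In AMPK KO cells none of the 35 genes passed with EGF in limma or voom, which called 0.0136% and 0.0181% of all genes, and none stood at an unadjusted p under 0.05, where 2.42% of all genes did. PFKL had a mean of 10.3 RPKM in DMSO and 9.65 with EGF, and PFKFB3 6.56 and 6.32. LDHA, which makes lactate from pyruvate, had a log2 fold change of 0.17 ± 0.16 there and of -0.34 ± 0.16 in WT cells. The difference of the EGF effect between the lines was tested as an interaction, in which none of the 35 passed and 0% of all genes did in either limma or voom, with 3 of the 35 and 8.69% of all genes at an unadjusted p under 0.05. These 3 were HIF1A (0.65 ± 0.24, adjusted p = 0.57), PFKL (-0.54 ± 0.22, adjusted p = 0.57) and TIGAR (0.56 ± 0.23, adjusted p = 0.57). The median log2 fold change of the 35 genes with EGF was 0.02 for WT and 0.01 for AMPK KO cells, and that of all genes tested was 0.02 and 0.01.

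Cordycepin was compared with its vehicle in cells that all received EGF. In WT cells 20 of the 35 genes had a lower value with cordycepin and 15 a higher one, with a median log2 fold change of -0.03 against 0.03 for all genes. None passed in limma (0.00453% of all genes) or in voom (4.15% of all genes), and 4 stood at an unadjusted p under 0.05 (16% of all genes). PFKFB3 had a log2 fold change of -0.42 ± 0.15 (adjusted p = 0.275) and PFKL of -0.43 ± 0.16 (adjusted p = 0.279). TXNIP had 0.47 ± 0.19 (adjusted p = 0.288) and TIGAR 0.40 ± 0.17 (adjusted p = 0.293). PFKL, PFKFB3 and TIGAR thus lay on opposite sides of 0 with EGF and with cordycepin, and both comparisons use the same WT DMSO+EGF libraries. No deviation of those libraries can be told apart from the 2 effects.

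In AMPK KO cells 28 of the 35 genes (80%) had a lower value with cordycepin and 7 a higher one, where 44.9% of all genes tested were lower. The median log2 fold change was -0.20 for the 35 genes and 0.06 for all genes. Of the 15 glycolytic enzymes 13 were lower (median -0.20), as were all 6 genes of pyruvate dehydrogenase and its kinases (median -0.27), 3 of 4 lactate genes (median -0.11) and 3 of 3 of TXNIP, ARRDC4 and HIF1A (median -0.35). The uptake genes did not follow, with 1 of 3 lower (median 0.00), nor did the fructose-2,6-bisphosphate genes, with 2 of 4 lower (median -0.04). None of the 35 passed in limma, which called 0.471% of all genes, and 5 stood at an unadjusted p under 0.05 (21.8% of all genes), while voom called ARRDC4 and LDHA as lower (5.67% of all genes called).

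AMPK KO cordycepin+EGF replicate 2 stood apart in this comparison. The median of the 35 genes on the log2 scale was 3.64 in it and 3.81 in replicate 3 of the same group, against 3.82 to 4.17 in the other 10 libraries. GAPDH, ENO1, TPI1, PGK1, PGAM1, PFKP and LDHA each had their lowest RPKM of all 12 libraries there, as did ARRDC4. The library total behind RPKM was 1.16 times the recovered reads there, the largest of the 12, which lowers RPKM per read. In AMPK KO DMSO+EGF that total was 0.975 and 0.977 times the recovered reads. The medians and limma fold changes given here rest on values brought to a common upper quartile, from which the total drops out. Without that library 23 of the 35 genes were lower and the median was -0.11, and without replicate 3 of that group they were 28 and -0.30.

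ARRDC4 had the largest difference of the 35 genes with cordycepin. ARRDC4 (ENSG00000140450) is a protein-coding gene on chromosome 15 of GRCh38, 97960703 to 97973833, on the plus strand. ARRDC4 RPKM was 14.97 and 32.5 in WT DMSO, 14.3 and 22.96 in WT DMSO+EGF, 21.9 and 31.8 in WT cordycepin+EGF, 31.1 and 32.6 in AMPK KO DMSO, 34.1 and 34.03 in AMPK KO DMSO+EGF and 11.9 and 14.02 in AMPK KO cordycepin+EGF. In AMPK KO cells the 4 libraries without cordycepin lay between 31.1 and 34.1 RPKM and both cordycepin libraries below 15, whereas the WT libraries overlapped among treatments and in each WT treatment replicate 3 was the higher. Within each replicate number, the WT value was higher with cordycepin and EGF than with EGF alone. In AMPK KO cells the log2 fold change was -1.32 ± 0.33 (95% confidence interval -2.08 to -0.57), with an unadjusted p of 0.00334, an adjusted p of 0.0853 in limma and of 0.0194 in voom. In WT cells it was 0.57 ± 0.33 (confidence interval -0.19 to 1.33, adjusted p = 0.413, and 0.243 with a replicate block within each line). The interaction, which tests the difference between the lines, was -1.89 ± 0.47 with an adjusted p of 0.122 in limma and 0.0115 in voom, and 0.03995 when only the 4 groups concerned were fitted. Over the 12 other settings and the 12 fits without a library the interaction lay between -2.21 and -1.57.

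TXNIP (ENSG00000265972, GRCh38 chromosome 1, 145992435 to 145996579, minus strand), whose product binds thioredoxin and GLUT1, was at 4.37 and 5.93 in DMSO, 3.84 and 5.38 with EGF and 5.74 and 6.902 with cordycepin and EGF in WT cells, and 6.02 and 6.53, 5.798 and 5.26, and 3.86 and 4.31 for the same treatments in AMPK KO cells RPKM. With cordycepin both WT libraries were higher and both AMPK KO libraries lower than both DMSO+EGF libraries of the same line. The log2 fold change in AMPK KO cells was -0.35 ± 0.19 (adjusted p = 0.302), and the interaction was -0.82 ± 0.26 (adjusted p = 0.147 in limma and 0.0552 in voom). Under cordycepin the lines differed by -0.55 ± 0.19 for TXNIP (adjusted p = 0.278) and by -0.98 ± 0.33 for ARRDC4 (adjusted p = 0.279), with no overlap between the libraries of the lines for either gene.

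**Figure D4:**
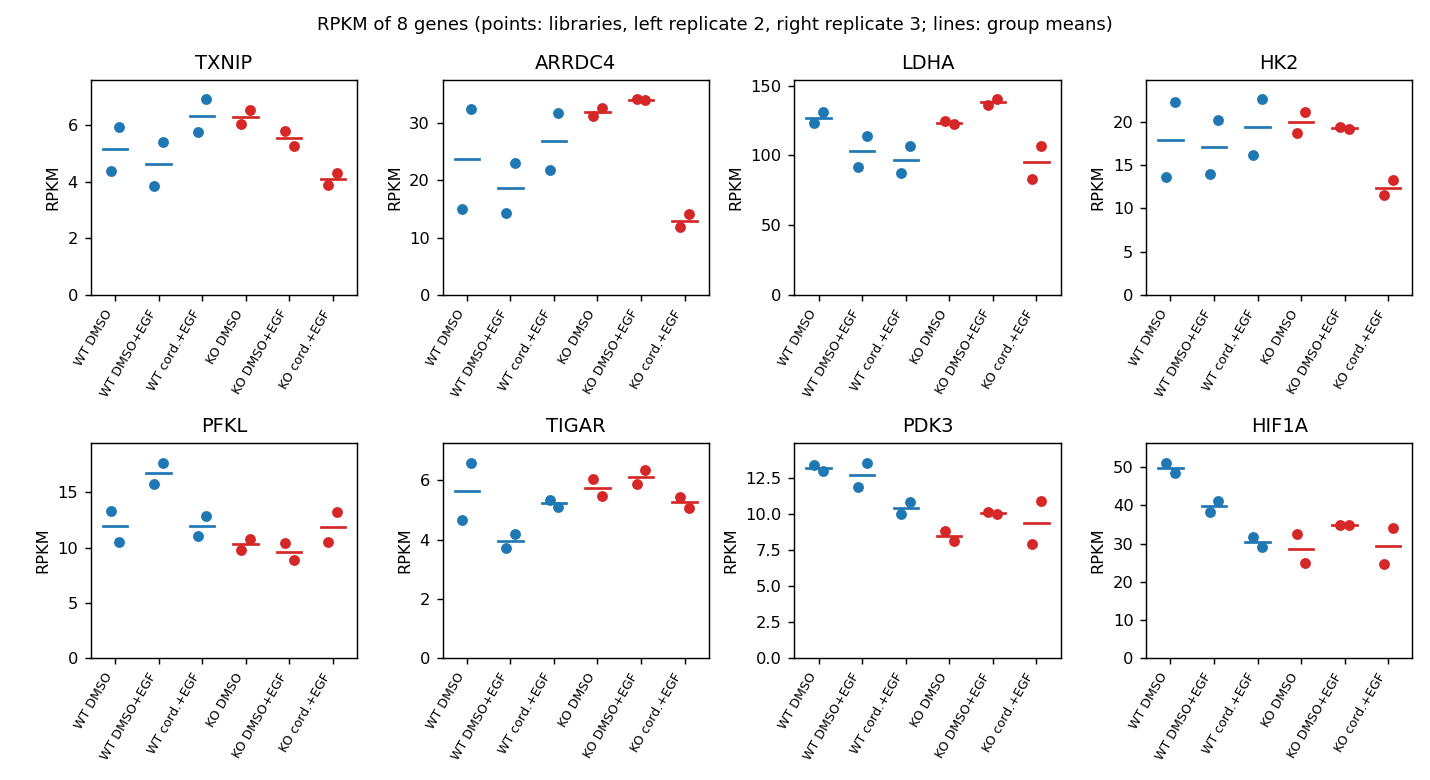
RPKM of 8 of the genes in the 6 groups, with 1 point per library (replicate 2 left, replicate 3 right), a line at each group mean, WT in blue and AMPK KO in red. ARRDC4 is at 11.9 and 14.02 RPKM in AMPK KO cells with cordycepin, while its WT points are spread between 14.3 and 32.5.

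LDHA was at 123 and 131 in WT DMSO, 91.8 and 114 in WT DMSO+EGF, 87.7 and 107 in WT cordycepin+EGF, 125 and 122 in AMPK KO DMSO, 136 and 140 in AMPK KO DMSO+EGF and 83.04 and 107 in AMPK KO cordycepin+EGF RPKM. Both AMPK KO DMSO+EGF libraries were the highest of all 12, and both cordycepin libraries of that line lay below them. The log2 fold change with cordycepin in AMPK KO cells was -0.50 ± 0.16 (95% confidence interval -0.86 to -0.14), adjusted p = 0.129 in limma and 0.0459 in voom. HK2 was at 13.6 and 22.3 in DMSO, 13.9 and 20.2 with EGF and 16.2 and 22.6 with cordycepin and EGF in WT cells, and 18.7 and 21.2, 19.4 and 19.2, and 11.5 and 13.2 for the same treatments in AMPK KO cells RPKM. The 2 lowest values of HK2 were those of AMPK KO cells with cordycepin, with a log2 fold change of -0.58 ± 0.25 there (adjusted p = 0.218) and an interaction of -0.80 ± 0.35 (adjusted p = 0.228). PDK1, the HIF-1-responsive kinase of pyruvate dehydrogenase, was at 5.85 and 7.45 in WT DMSO, 5.07 and 5.52 in WT DMSO+EGF, 6.21 and 6.32 in WT cordycepin+EGF, 6.66 and 6.27 in AMPK KO DMSO, 6.85 and 6.77 in AMPK KO DMSO+EGF and 4.95 and 5.12 in AMPK KO cordycepin+EGF RPKM. Both AMPK KO libraries with cordycepin lay below all other libraries of that line, with a log2 fold change of -0.36 ± 0.13 (adjusted p = 0.17) and an interaction of -0.62 ± 0.19 (adjusted p = 0.137 in limma and 0.0363 in voom).

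The 2 glycolytic enzymes with a higher value under cordycepin in AMPK KO cells were ALDOC and PFKL. ALDOC was at 1.15 and 1.52 in DMSO, 1.77 and 1.91 with EGF and 1.55 and 2.55 with cordycepin and EGF in WT cells, and 1.67 and 1.67, 1.85 and 1.36, and 2.405 and 2.55 for the same treatments in AMPK KO cells RPKM. Its log2 fold change with cordycepin in AMPK KO cells was 0.55 ± 0.22 (adjusted p = 0.196), and that of PFKL was 0.33 ± 0.16 (adjusted p = 0.265). PDK4 had -0.39 ± 0.18 in AMPK KO cells (adjusted p = 0.252) and 0.37 ± 0.18 in WT cells (adjusted p = 0.348), and its interaction was -0.76 ± 0.26 (adjusted p = 0.157). PFKL was the only gene with an interaction above 0 at an unadjusted p under 0.05, at 0.76 ± 0.22 (adjusted p = 0.136 in limma and 0.0326 in voom). In the interaction of cordycepin and line as a whole, 25 of the 35 genes were below 0 and the median was -0.19, against 0.02 for all genes. None passed in limma (0% of all genes), 7 stood at an unadjusted p under 0.05 (21.4% of all genes), and voom called PFKL, ARRDC4 and PDK1 (9.57% of all genes called).

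**Figure D5:**
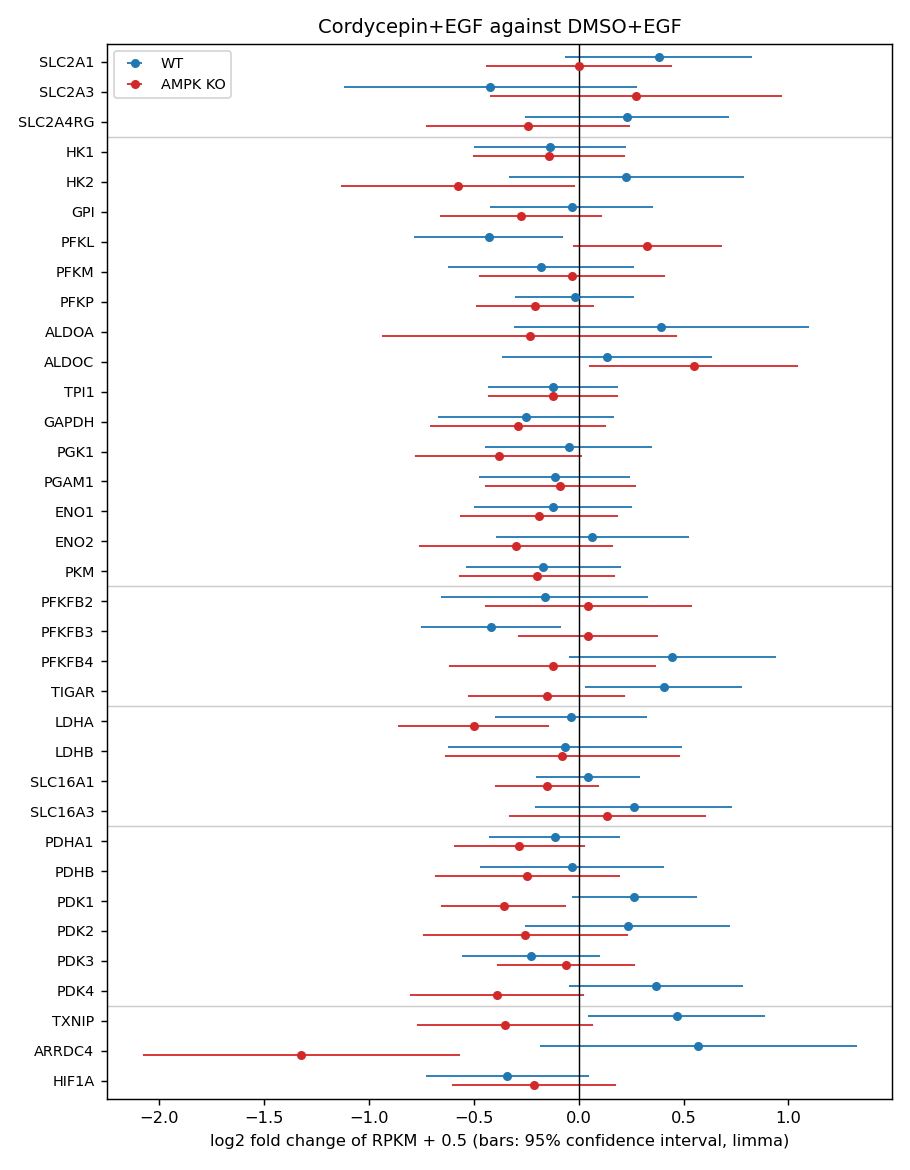
log2 fold change of cordycepin+EGF against DMSO+EGF for the 35 genes (rows, by role) in WT (blue) and AMPK KO (red) cells, with 95% confidence intervals from limma. ARRDC4 lies at 0.57 in WT and -1.32 in AMPK KO, and 28 of the 35 AMPK KO points are below 0.

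Several of these calls turned on WT DMSO libraries that enter only the shared estimate of spread. Without WT DMSO replicate 2 the limma adjusted p was 0.0283 for ARRDC4 with cordycepin in AMPK KO cells, 0.0205 for its interaction and 0.0384 for that of PDK1. In the comparison of the lines under EGF it was then 0.0193 for PFKL, 0.0252 for TIGAR and 0.0421 for ARRDC4. Without WT DMSO replicate 3 the same 6 results passed as well. Calls over all genes rose likewise. Without WT DMSO replicate 2, 6.16% of all genes passed for cordycepin in AMPK KO cells, 9.06% for the interaction and 10.7% for the lines under EGF. In the comparison of the lines over the treatments, WT DMSO libraries enter the fold change itself. There SLC2A3 went from 0.482 to 0.645 without WT DMSO replicate 2, which left replicate 3 with its 8 reads. Without WT DMSO replicate 3, PFKL went from -0.319 to -0.374 and PFKFB4 from 0.498 to 0.545. HIF1A went from -0.346 to -0.421 without AMPK KO cordycepin+EGF replicate 3.

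The uptake genes and GAPDH are given with the intervals of their differences. SLC2A1 had a log2 fold change with cordycepin of 0.00 ± 0.20 in AMPK KO cells (confidence interval -0.44 to 0.45) and of 0.38 ± 0.20 in WT cells (-0.06 to 0.83). SLC2A3 had 0.27 ± 0.31 and -0.42 ± 0.31. GAPDH had -0.29 ± 0.19 in AMPK KO cells and -0.25 ± 0.19 in WT cells, and the interaction was -0.04 ± 0.26, with an interval from -0.63 to 0.56 that does not exclude a difference of either sign.

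Of 52 other genes of glucose metabolism that were listed (further transporters, isozymes, the pentose phosphate pathway, glycogen and the pyruvate carrier), 38 were tested. RPE, an epimerase of the pentose phosphate pathway, was the only one to pass in limma in any of the 10 comparisons. RPE RPKM was 12.2 and 9.38 in WT DMSO, 12.4 and 10.96 in WT DMSO+EGF, 9.63 and 9.698 in WT cordycepin+EGF, 14.1 and 14.5 in AMPK KO DMSO, 16.2 and 13.6 in AMPK KO DMSO+EGF and 14.6 and 14.2 in AMPK KO cordycepin+EGF. All 6 AMPK KO libraries lay above all 6 WT libraries, and RPE rose by 0.43 ± 0.08 on the log2 scale (limma adjusted p = 0.0252), in a comparison where limma called 4.34% of all genes. There voom called 4 of the 38, all higher, against 10.8% of all genes. With cordycepin in AMPK KO cells 20 of the 38 were lower, and none passed in limma, while voom called 1 as higher and 3 as lower (5.67% of all genes called). For the lines with EGF voom called 6 of the 38 (11.6% of all genes) and for the cordycepin interaction 4 (9.57%). It called 2 for cordycepin in WT cells (4.15%) and 1 for the lines in DMSO (8.23%). The log2 fold change with cordycepin in AMPK KO cells was 1.93 ± 0.37 for GAPDHS, the sperm-type isozyme (limma adjusted p = 0.0574). For GFPT1, the first enzyme of the hexosamine pathway, it was -0.49 ± 0.13 (adjusted p = 0.0979). With cordycepin in WT cells GAPDHS had 1.19 ± 0.37 (adjusted p = 0.267) and PGM1, phosphoglucomutase, -0.94 ± 0.30 (adjusted p = 0.267). The median log2 fold change of the 38 with cordycepin was -0.04 in AMPK KO and 0.08 in WT cells.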

How the data were processed

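RNA of 12 HEK293 cultures was sequenced after ribosomal depletion, and the authors mapped paired reads of 150 bases to GRCh38.p13, counted them with Rsubread and deposited RPKM values per gene. Of 26058 genes, 25082 (96.25%) gave whole reads in all libraries at the GENCODE release 44 exon length, within 0.05, and 26057 after a search for another length. From the deposited RPKM, values brought to a common upper quartile were tested as log2(RPKM + 0.5) with limma 3.58.1 in R 4.3.3: 1 fit of 6 group means over 12 libraries, 10 comparisons, eBayes with trend, two-sided, Benjamini-Hochberg over the 22067 genes with a mean of at least 0.5 RPKM. Fold changes on this scale understate those of low genes. limma's voom was run on the recovered reads as an alternative. The 6 residual degrees of freedom became 8.96 after moderation. Intervals carry 95% confidence, and cover the spread between libraries.

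Values in every library are given for genes passing an adjusted p of 0.05, for up to 3 higher and 3 lower genes per comparison with the smallest unadjusted p under 0.05, and for TXNIP, ARRDC4, SLC2A1, SLC2A3, HK2, PFKFB3, PDK4, HIF1A, LDHA and GAPDH. Genes, lists and comparisons were chosen with earlier results of these data known, and the tandem box after the promoters had been read. Replicate numbers come from the labels. The replicate differences of the 3 WT groups correlated at r = 0.136 to 0.314 over genes, those of the AMPK KO groups at -0.122 to 0.0307 and those between the lines at -0.0809 to 0.322. All pairs of groups lay above 0.1 within WT alone, and the numbers were taken to pair the WT libraries. The highest r was between the lines, so that the correlations do not settle this pairing. The main fit held no replicate block. Concentrations of EGF are left out because the sources used here give different units.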

Additional observations from a re-analysis of the deposited data

How the results depend on the processing

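Under the other settings (12, and 11 for the lines over the treatments, where all groups are compared) and the 12 fits without a library, each gene with an unadjusted p under 0.05 kept its direction, and the median log2 fold change of the 35 genes moved by less than the SD of their median level between replicates (0.149 on the log2 scale). Medians close to 0 changed sign under at least 1 of these for the lines over the treatments, for EGF in either line, for cordycepin in WT cells and for the EGF interaction. Counts of genes passing an adjusted p of 0.05 were not stable, and the cause was not tested. The sign of GAPDH, whose changes were small, turned without 1 library: the log2 fold change ranged from -0.003 to 0.126 for EGF in AMPK KO cells (turned without AMPK KO DMSO replicate 3), from -0.048 to 0.081 for the lines in DMSO (without WT DMSO replicate 2 or AMPK KO DMSO replicate 2), from -0.315 to 0.038 for the lines under cordycepin (without AMPK KO cordycepin+EGF replicate 2) and from -0.213 to 0.14 for the cordycepin interaction (without WT DMSO+EGF replicate 2, WT cordycepin+EGF replicate 3, AMPK KO DMSO+EGF replicate 3 or AMPK KO cordycepin+EGF replicate 2). Leaving out 1 library gave 0 to 1 genes passing for EGF in WT cells (where it gave 1, 3.18% of all genes passed), 0 to 1 for cordycepin in AMPK KO cells (up to 6.16% of all genes), 0 to 4 for the lines over the treatments (13.1%), 0 to 5 in DMSO (13.9%), 0 to 3 with EGF (10.7%), and 0 to 2 for the cordycepin interaction (up to 9.09%). For cordycepin in AMPK KO cells array weights gave 1 (5.41% of all genes) and voom 2 (5.67%). For the lines over the treatments, where the count was 1, RPKM as deposited, median-ratio scaling and array weights gave 0, as did the replicate block over all libraries and the replicate block within each cell line, and voom gave 4 (10.8%). voom gave 3 (8.23%) for the lines in DMSO. With EGF a minimum of 1 RPKM gave 1 (2.31%), only the groups compared 2 (10%), array weights 8 (22.8%) and voom 5 (11.6%). Array weights were equal within each group, from 0.365 in WT DMSO to 2.02 in AMPK KO DMSO+EGF. That setting therefore weights groups and cannot set a poor library apart from its partner. For the cordycepin interaction only the groups compared gave 1 (5.11%), array weights 2 (6.60%) and voom 3 (9.57%). Paired by replicate number, no other count of calls changed. A fit without a library leaves its group with 1, which is assumed to vary like the others. The depth of 4005376 reads in WT DMSO replicate 3 limits low genes such as SLC2A3 the most.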

Other observations

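Other targets of HIF-1 and factors that regulate glucose-responsive and hypoxic genes were listed beside the 35 genes. Of 20 HIF-1 targets 17 were tested, and 13 of the 17 had a lower mean in AMPK KO than in WT cells over the 3 treatments (median log2 fold change -0.15, against 0.00 for all genes), with none passing limma (4.34% of all genes), 3 at an unadjusted p under 0.05 (20.4% of all genes) and 4 called lower by voom (10.8% of all genes). In the single treatments 9 of the 17 were lower in DMSO, 13 with EGF and 9 with cordycepin and EGF. The smallest p belonged to EGLN3, a HIF prolyl hydroxylase (-0.49 ± 0.12, adjusted p = 0.0552), and ERO1A, an oxidoreductase of the endoplasmic reticulum (-0.34 ± 0.09, adjusted p = 0.0758). NDRG1, a stress-responsive gene, was at 12.8 and 7.84 RPKM in WT DMSO, 15.8 and 18.5 with EGF and 5.25 and 5.22 with cordycepin and EGF, and its log2 fold change with cordycepin in WT cells was -1.57 ± 0.26 with a limma adjusted p of 0.185.

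Of the 12 regulators, all tested, MYC, which activates many glycolytic genes, was the only one to pass in limma, in the 3 comparisons given here. For the lines over the treatments voom called 1 of the 12 as higher and 2 as lower (10.8% of all genes called). For the lines in DMSO it called 1 as higher and 1 as lower (8.23%). With EGF it called 1 as higher and 2 as lower (11.6%), and with cordycepin and EGF 1 as higher (1.71%). For cordycepin in WT cells 2 were called lower (4.15%), and in AMPK KO cells 1 was called higher (5.67%). For the cordycepin interaction 3 were called higher (9.57%). MYC was at 28.1 and 20.5 RPKM in WT DMSO, 44.9 and 45.8 in WT DMSO+EGF, and 11.3 and 11.1 in WT cordycepin+EGF. In AMPK KO cells it was at 6.89 and 6.99, 11.2 and 9.83, and 5.27 and 11.4 RPKM for the same treatments. MYC fell in AMPK KO cells by 1.42 on the log2 scale over the treatments (limma adjusted p = 0.00346), by 1.74 in DMSO (adjusted p = 0.0434) and by 2.04 with EGF (adjusted p = 0.0199), where limma called 4.34%, 0.44% and 1.74% of all genes. MLXIPL, encoding ChREBP, had a log2 fold change with cordycepin of 0.64 ± 0.19 in AMPK KO cells (adjusted p = 0.114) and an interaction of 1.18 ± 0.27 (adjusted p = 0.122). Its sign was opposite to that of ARRDC4 and TXNIP, and a link was not tested. Mean RPKM of MLXIPL was 3.83 with EGF and 2.42 with cordycepin and EGF in WT cells, and 1.86 and 3.09 in AMPK KO cells. MLXIP, encoding MondoA, stood higher, at 17.5 and 15.4 in WT cells and 13.9 and 13.4 in AMPK KO cells.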
